A study of Saccharomyces cerevisiae with 36 samples.

Results

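Jerala_P1, Jerala_P2, N1 and N2 are 4 short coiled-coil peptides, the first and second members of a P and an N series, and they were chosen by name among the 154 protein names of the pools that hold them. In every pool that listed them, the designed pair of a series, P1 with P2 or N1 with N2, took a larger share of reads after selection while the median pair took a smaller one, except for P2 with P1 in the mALbR pool, which had too few reads to measure. The pairs between the series depended on the order of the partners: N1 as row protein was high with P1 and P2, as it was with nearly every protein, and the same pairs in the other order were low. In the largest pool P1 with P2 was the only designed order that passed the test. Other pairs that passed there included BN4 with P1, AN4 with P2, N1 with BN4, and N2 with several B chains of the designs named mALb8.

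The measurements came from a yeast 2-hybrid growth selection read out by sequencing, in which each cell carried a barcoded pair of fusion proteins. Barcode pairs were read from cells kept with histidine and from cells then grown without it in 3-AT, an inhibitor of the HIS3 enzyme that raises the amount of reporter needed for growth. The 22 libraries used here came from 5 pools in 7 library sets. The NCIP pool (12 P peptides, 2 biological replicates) was sampled before selection and after selection at 2 mM and 10 mM 3-AT, and in replicate 1 also after 24, 44 and 60 h of outgrowth with histidine, the 24 h library being the unselected library of that replicate.

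The NICPmALbT pool (38 proteins), the AnBnNPA pool (38 proteins) and the mALbR pool (86 proteins) had 1 library before and 1 after selection, and the Coiled pool (18769 ordered pairs) had 2 biological replicates with 2 technical runs each, which were summed. The sample descriptions put selection in these 4 pools at 1 mM 3-AT, whereas a single protocol attached to every sample names 3 mM. P1 and P2 were in all 5 pools and N1 and N2 in the AnBnNPA and Coiled pools. The yeast strain and the axis that held the DNA-binding fusion are not stated in the labels, and a pair is written as row protein with column protein. Whether the biological replicates started from separate transformations is also not given, so p-values measure the spread between these libraries.

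In a coiled coil, helices wrap around each other along a repeating pattern of hydrophobic residues, and charged residues beside that core favour some partners over others. Peptide series of this kind are built so that each member pairs with its designed partner and little else, and the names here order the P and N peptides as odd with next even number. In a 2-hybrid assay a pair that binds brings an activation domain to the reporter, here HIS3, whose product makes histidine. Some fusions switch on a reporter without a partner, so the median over all partners of each peptide is given beside its pairs.

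Each peptide was read through a single barcode, the same in every library set that held it and used for no other protein there. Because every value below rests on these tags, they are shown as the barcode maps write them. They differ from each other at 14 to 17 of 20 positions, and from any other barcode of these maps at 7 or more.
Jerala_P1: taccgagtctgagatgccca
Jerala_P2: gacactgcagaccgatatgc
N1: cgtacgatcatgaacctttc
N2: agacttcgacaatattccgc

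Libraries held 327863 to 477199 reads in the NCIP pool, 1107694 to 1271971 in the NICPmALbT pool, 7787601 to 8857819 in the AnBnNPA and mALbR pools and 14428752 to 22515090 in the Coiled pool. The measure used for single libraries is the log2 ratio of a pair's share of reads after selection to its share before, with 1 read added, and a pair counts as measured with at least 10 reads before selection in each replicate. Since selected pairs take up reads, the ratio of the median pair lay below 0: at -3.83 and -6.56 in replicates 1 and 2 of NCIP at 2 mM, at -4.63 and -5.11 at 10 mM, at -2.74 in NICPmALbT, -3.66 in AnBnNPA, -2.33 in mALbR, and -2.62 and -2.29 in Coiled. The tested quantity is the log2 change from edgeR's quasi-likelihood fit with TMM scaling, which sets the bulk of pairs near 0. Intervals of single libraries are exact 95% intervals and cover counting error only, since reads are PCR products without molecular identifiers.

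P1 with P2 was among the most enriched pairs of the 12-peptide pool. Before selection it held 1866 and 1523 reads in replicates 1 and 2. At 2 mM it held 62934 and 50652, or 13.2% and 15.4% of all reads, with log2 ratios of 4.83 and 5.23. At 10 mM it held 102351 and 61887 reads, 23.8% and 13.9% of the library, with ratios of 5.68 and 5.08. The selected libraries of both concentrations lay far above the unselected ones, with no overlap. The fitted log2 change was 10.70 ± 1.85 (SE, n = 2, adjusted p = 0.0142) at 2 mM and 10.07 ± 1.80 (adjusted p = 0.0277) at 10 mM.

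The swapped order behaved alike. P2 with P1 went from 796 and 1811 reads to 31951 and 44640 at 2 mM (log2 ratios of 5.08 and 4.80) and to 93558 and 109859 at 10 mM (6.78 and 5.66). Here too selected and unselected libraries did not overlap. Its fitted log2 change was 10.71 ± 2.08 (adjusted p = 0.0160) at 2 mM and 10.73 ± 2.08 (adjusted p = 0.0292) at 10 mM. Of the 44 ordered pairs that hold P1 or P2 these were the 2 that passed edgeR's test at each concentration, or 4.55%, against 5.76% of all pairs tested at 2 mM and 3.6% at 10 mM. In the other direction 0 passed at either concentration, 0 had an unadjusted p under 0.05, and DESeq2 called 0, whereas library totals in place of TMM gave 30 and 31. The ratio was above 0 in both replicates for these same 2 orders, against 7.25% and 4.35% of measured pairs. The calls need both unselected libraries, since without that of replicate 1 or that of replicate 2 the count of pairs called went from 2 to 0 at each concentration. It was 4 at 2 mM without the selected library of replicate 1 at 2 mM, and 4 at 10 mM without either library of 2 mM. Both selections share their unselected libraries, so their values are set side by side and are not independent.

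The difference between 10 and 2 mM was not resolved. P1 with P2 lay at -0.63 ± 1.23 and P2 with P1 at 0.02 ± 1.38 in the fit (adjusted p = 0.9998 for each), and in the direct edgeR comparison 0 of the 44 pairs passed, as did 0.0% of all pairs (0 of the 44 at an unadjusted p under 0.05, and 0 by DESeq2). The sign depends on the scale, as the difference was 0.40 for P1 with P2 on library totals. This fit ignores replicate numbers, although same-numbered libraries correlated at 0.791 here. With replicate as a block P1 with P2 was at -0.19 and P2 with P1 at 0.86, and neither passed (adjusted p = 0.976 for each). The log2 ratio of P1 with P2 minus that of P2 with P1 was -0.25 and 0.43 in replicates 1 and 2 at 2 mM and -1.10 and -0.58 at 10 mM.

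Among partners other than themselves, both peptides were selective in this pool. Self pairs are not counted as partners in these ranks and medians or in those below. At 10 mM P1 with itself lay at 1.41 and 1.90 and P2 with itself at 0.50 and -0.46. These few-read pairs lay above the next partner and below the designed pair. As row and as column protein, P1 and P2 each had the other as first of 11 partners, with the next partner lower by 7.01 to 9.19 on the log2 scale. P1 as row had P7 next at 2 mM, with a mean ratio of -1.98, and P12 at 10 mM, with -3.39. Over its 11 partners P1 as row had a median of -5.52 and P2 as row one of -5.08 at 2 mM, near the pool's -5.10. The partners of highest rank that lay above the pool's median in both replicates, P12 with P1 as row (1.58 ± 1.22 at 2 mM, adjusted p = 0.5025) and P4 as row with P2 (1.24 ± 0.81, adjusted p = 0.490), did not pass the test. Among the 12 designed orders of the P series P1 with P2 and P2 with P1 ranked 2 and 3 at 2 mM and 3 and 1 at 10 mM by mean ratio. Elsewhere they ranked 2 and 11 of 12 in NICPmALbT, 3 and 5 of 11 in AnBnNPA and 5 and 9 of 12 in Coiled, and P1 with P2 was 4 of 7 in mALbR. Of the 6 designed orders of the N series N1 with N2 ranked 1 and N2 with N1 ranked 5 in both AnBnNPA and Coiled.

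In the pools with 1 library per condition the designed P pair was high again. P1 with P2 went from 0.0116% to 0.472% of reads in NICPmALbT, a log2 ratio of 5.33 (95% interval 5.10 to 5.59), and P2 with P1 from 76 to 1339 reads (4.32). In AnBnNPA the orders went from 282 to 17792 reads (5.896, 5.73 to 6.08) and from 320 to 14270 (5.40, 5.24 to 5.56). In mALbR, P1 with P2 went from 34 to 1332 reads (5.29, 4.84 to 5.87). These ratios lie far above the median pair of each pool, without a replicate to give a test. Of the measured pairs with P1 or P2, 9 of 146 were above 0 in NICPmALbT (8.04% of all pairs) and 10 of 284 in mALbR (9.62% of all pairs). P2 with P1 had 9 reads before and 10 after selection in mALbR (0.18, interval -1.26 to 1.67), below the minimum, so that order was not measured there.

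The N pair was measured in the AnBnNPA and Coiled pools. In AnBnNPA, N1 with N2 went from 2025 to 106936 reads (log2 ratio 5.64, interval 5.58 to 5.71) and N2 with N1 from 1714 to 77317 (5.42, 5.35 to 5.49). All 4 designed orders of the peptides were thus close to each other in that pool. Of 283 measured pairs with one of the 4 peptides 53 had a ratio above 0, and of all its 1414 measured pairs 9.69%. N1 as row protein with another protein gave 37 of the 53, and N1 with itself was also among them.

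P1 with P2 of the Coiled pool went from 6039 and 5458 reads to 85907 and 131744 in replicates 1 and 2. Its log2 ratios of 4.28 and 4.29 were nearly equal. P2 with P1 went from 2184 and 1621 reads to 13542 and 17966 (3.08 and 3.17). N1 with N2 went from 409 and 345 reads to 6345 and 25539 (4.402 and 5.904), so the replicates of this order were further apart. N2 with N1 went from 1631 and 897 to 7350 and 10045 (2.62 and 3.18). For all 4 orders the shares of both selected libraries lay above those of both unselected ones. Their ratios were above 0 in both replicates, against 6.08% of all 15285 measured pairs. N1 as row was above 0 in both replicates with 116 of 126 measured partners, so this did not set N1 with N2 apart in its row.

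In the fit P1 with P2 rose by 6.62 ± 0.37 (SE, n = 2, adjusted p = 0.0339). The other designed orders did not pass: P2 with P1 was at 5.47 ± 0.65 (adjusted p = 0.0520), N1 with N2 at 7.70 ± 1.01 (adjusted p = 0.0684) and N2 with N1 at 5.25 ± 0.80 (adjusted p = 0.0879). N1 with N2 had the largest change of these and a wider error than either P order. With replicate as a block N1 with N2 passed (7.51, adjusted p = 0.0373), whereas P2 with P1 (adjusted p = 0.0697) and N2 with N1 (adjusted p = 0.1535) again did not. With 2 libraries against 2 an exact permutation test of a single pair cannot go below p = 0.333.

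**Figure D1:**
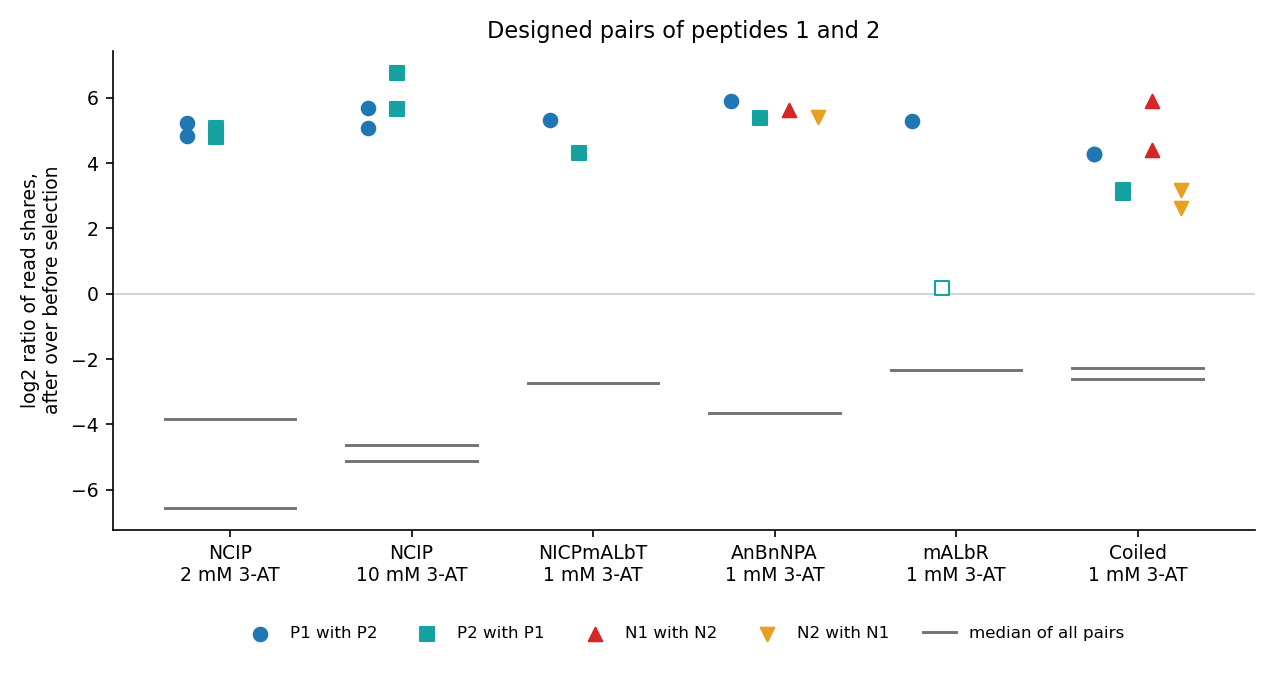
Log2 ratio of read shares after over before selection (vertical axis) for the designed pairs in each pool and 3-AT concentration; each symbol is 1 replicate, grey lines are the median of all measured pairs of each replicate, and the open symbol had under 10 reads before selection. Measured designed pairs sit between 2.62 and 6.78, and the medians of all pairs between -6.56 and -2.29.

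The order of the partners mattered in the Coiled pool. P1 with P2 exceeded P2 with P1 by 1.198 and 1.12 on the log2 ratio scale in replicates 1 and 2, and N1 with N2 exceeded N2 with N1 by 1.78 and 2.72. In AnBnNPA the same differences were 0.50 and 0.23, and in NICPmALbT the P difference was 1.01. At 10 mM in NCIP the P difference had the opposite sign in both replicates, as given above. The order of the P pair was thus not the same in every pool, and no test of these differences was run. Values of the technical runs differed within a replicate by a median of 0.20 (highest 2.07) over the 16 pairs among the peptides, against a median of 1.29 (highest 3.54) between replicates.

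Between the series, N1 and the P peptides gave opposite values in the 2 orders. In AnBnNPA N1 with P1 went from 995 to 15158 reads (3.85, interval 3.76 to 3.94), while P1 with N1 went from 593 to 65 (-3.25, -3.66 to -2.90). N1 with P2 went from 324 to 9560 reads (4.80) and P2 with N1 from 440 to 48 (-3.25). The Coiled pool had N1 with P1 at 7924 and 5078 reads after selection (3.38 and 2.86), and P1 with N1 going from 2949 and 1795 reads to 752 and 343 (-1.52 and -2.69). N1 with P2 was at 1.05 and 1.48 there. The ratio with N1 as column minus that with N1 as row was -4.90 and -5.55 in replicates 1 and 2 for P1 and -3.51 and -3.72 for P2, so both replicates gave the same sign. In the fit N1 with P1 was at 5.57 ± 0.98 (adjusted p = 0.113) and N1 with P2 at 3.61 ± 0.95 (adjusted p = 0.167), and neither passed the test.

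The other 6 orders between the series stayed low. P2 with N1 had Coiled ratios of -2.47 and -2.24 and a fitted change of -0.01 ± 0.31 (adjusted p = 0.989), so it sat at the bulk of the pool. N2 with P1 had ratios of -3.18 and -2.57 (fitted -0.52 ± 0.29, adjusted p = 0.337). P1 with N2 (-0.89 and -2.78), P2 with N2 (-0.35 and -3.07) and N2 with P2 (-3.79 and -0.30) each lay above the pool's median in 1 replicate and below it in the other. In AnBnNPA these 4 pairs of N2 with a P peptide lay between -4.17 and -2.38. None of these orders passed the test in the Coiled pool.

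**Figure D2:**
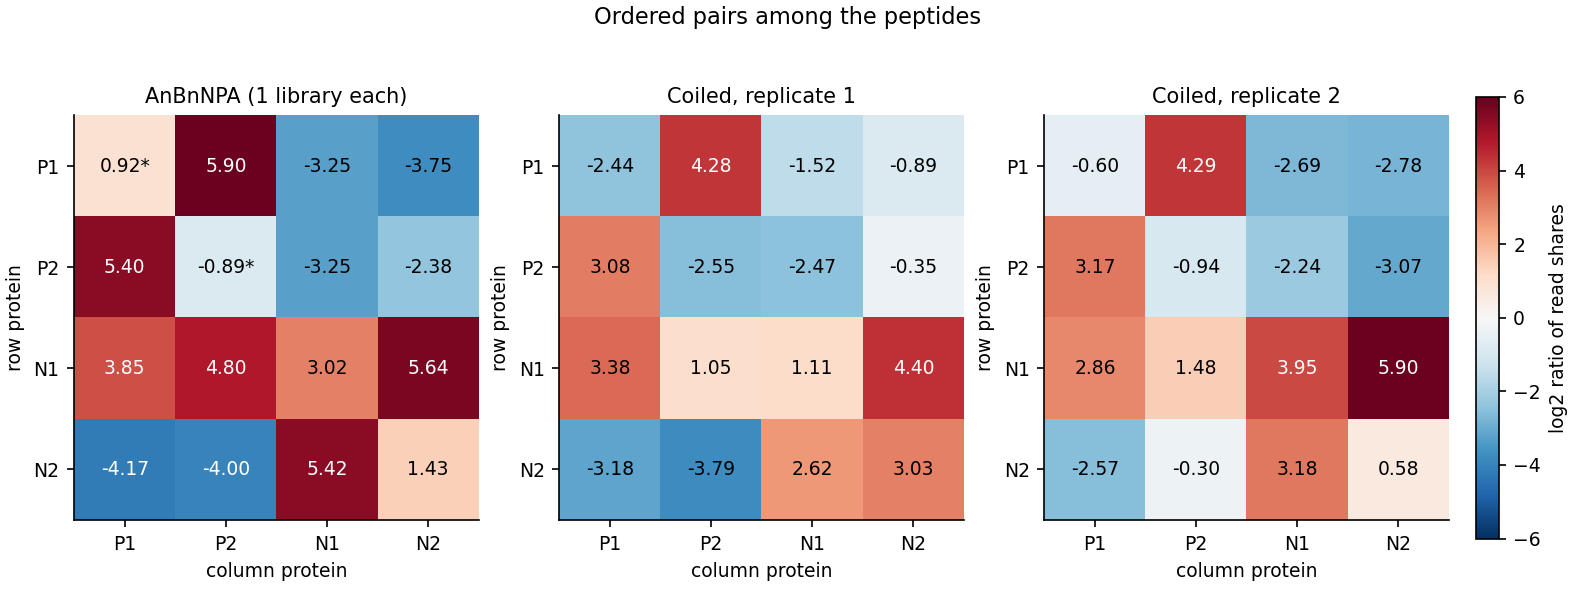
Log2 ratio of read shares for all 16 ordered pairs of P1, P2, N1 and N2 (row protein on the vertical axis, column protein on the horizontal axis), in the AnBnNPA pool and in each replicate of the Coiled pool; a star marks under 10 reads before selection. The row of N1 is above 0 throughout, from 1.05 to 5.904, whereas N1 as column is high with N2 (2.62 to 5.42) and, on the diagonal, with itself (1.11 to 3.95).

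N1 as row protein had the highest median over partners of any protein on either axis. In AnBnNPA its median log2 ratio over 37 partners was 4.37, first of 38 row proteins, and the next was AN4 at -0.59. In the Coiled pool its median was 2.95 and 2.81 in replicates 1 and 2, first of all row proteins with 5 or more measured partners, and the next was mALb8x12_fdrtc_B at 0.68 and 0.41. As column protein N1 stood at -2.94 in AnBnNPA, first of 38 columns by a small margin (N7 next at -3.15), and at -2.60 and -2.57 in the Coiled pool, ranks 59 and 77. The high values of N1 were therefore tied to one axis. The whole N1 row went from 0.842% of AnBnNPA reads before selection to 17.7% after it, and from 0.414% and 0.396% to 3.49% and 3.58% in the Coiled pool.

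The N1 row was above 0 with all 37 partners in AnBnNPA. In the Coiled pool it was above 0 in both replicates with 116 of 126 measured partners, or 92.1%, against 6.08% of all 15285 measured pairs. By list these were 10 of 10 other P peptides (median 3.01), 4 of 4 other N peptides (3.36), 4 of 4 PA peptides (3.18), 6 of 6 AN and BN peptides (3.03), 21 of 21 mALb T designs (2.86) and 51 of 53 mALb R designs (2.83). Of 25 measured PUMA, Bcl-2 family and inhibitor proteins 17 were above 0. The 10 exceptions included 2CDP06 (50 and 69 reads before, 2 and 0 after), Bcl-w (11 and 27, then 1 and 0) and Bfl-1 (79 and 26, then 2 and 6), where Bcl-w and Bfl-1 are pro-survival members of the Bcl-2 family. They had a median of 51.0 and 31.0 reads before selection, against 786 and 455.5 for the other 116, so most of them were scarce. They were named after their values were seen.

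Few N1 pairs passed the test in spite of these medians. As row protein N1 had a median fitted change of 5.35 with a median SE of 1.02 over 129 tested partners, and 119 were higher at an unadjusted p under 0.05. After adjustment 4 were enriched and 0 depleted: BN4 (7.04 ± 0.71, adjusted p = 0.0438), XCDP07 (6.74 ± 0.51, adjusted p = 0.0339), mALb8x12_rprtc_B (6.14 ± 0.67, adjusted p = 0.0469) and IL9_2Hx12j_A (3.33 ± 0.31, adjusted p = 0.0381). XCDP07, a designed inhibitor, was counted 20 and 26 times before selection and 404 and 563 times after it. The pair with mALb8x12_rprtc_B had 30 and 8 reads before selection, under the minimum, so it was not measured. Its ratios were 2.74 and 4.93. IL9_2Hx12j_A was a low partner for this row, with ratios of 0.81 and 1.14 against row medians of 2.95 and 2.81. Its fitted change also lay below the row's median. As column protein N1 had 0 enriched partners of 122 (7 higher at an unadjusted p under 0.05), with a median change of -0.07.

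Set against its own row, the designed partner of N1 stood out less than that of the other peptides. N2 ranked first of 37 in the N1 row of AnBnNPA, 1.30 above the median of the other partners, with P10 next at 5.47. In the Coiled pool it ranked first of 126, 1.46 and 3.10 above that median, with BN4 next at a mean ratio of 4.67. By contrast N1 was 9.61 above the median of the other partners in the N2 row of AnBnNPA, and 4.82 and 5.18 above it in the Coiled pool. P1 in the N1 row lay at -0.55 from the row's median in AnBnNPA and at 0.44 and 0.06 in the Coiled pool. P2 in the N1 row lay at 0.46, and at -1.91 and -1.34, ranking 112 of 126. In the Coiled pool N1 with P1 thus sat near what N1 had with its other partners, and N1 with P2 below it. The part of reporter activation by N1 without a partner was not tested.

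**Figure D3:**
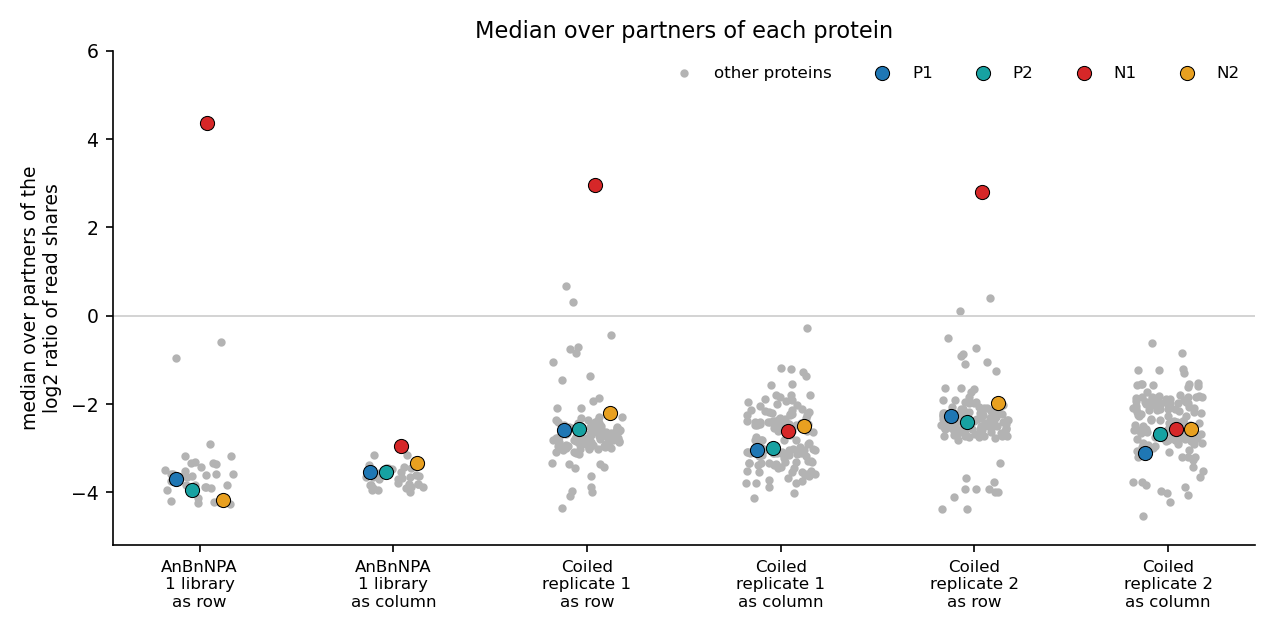
Median over partners of the log2 ratio of read shares (vertical axis) for each protein with 5 or more measured partners, as row and as column protein, in the AnBnNPA pool and in each replicate of the Coiled pool; coloured points are the 4 peptides and grey points all other proteins. N1 as row stands at 4.37, 2.95 and 2.81, above every other protein, while P1, P2 and N2 lie among the rest, as does N1 as column in the Coiled pool.

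P1 and P2 had ordinary medians over partners as rows of the Coiled pool, and lower-ranking ones as columns. P1 stood at -2.59 and -2.28 as row in the Coiled pool (ranks 44 and 49) and P2 at -2.56 and -2.42. As columns they stood at -3.03 and -3.10 and at -2.99 and -2.68. N2 was somewhat higher as row, at -2.20 and -1.97 (ranks 16 and 21). In AnBnNPA the order was different, since N2 as row had the lowest of the 4 medians, at -4.18 (rank 33 of 38). In mALbR both P peptides were near the bottom of the rows, at -2.70 and -2.65 (ranks 85 and 84 of 86). As columns they were also low there, at -3.34 and -3.35 (ranks 75 and 77 of 86). Their pairs were scarce there, with row medians of 121 and 130 reads before selection, against 1030.5 over pairs of different proteins. With a pseudocount of 10 the row medians moved to -2.02 and -2.25 and the column medians to -3.07 and -3.12, so these ranks are not firm.

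In the Coiled pool 15 of the 998 tested pairs that hold one of the 4 peptides passed edgeR's test with a gain, against 0.972% of all 15532 pairs tested. A loss passed in 0, although 87 were lower with an unadjusted p below 0.05 and 199 higher, and DESeq2 called 22 lower and 236 higher. Above 0 in both replicates were 165 of 993 measured pairs, of which the N1 row gave 116 besides its self pair. Of the pairs that passed edgeR's test with a gain, those with P1 or P2 were 4 of 505 tested. Those with N1 or N2 were 11 of 501 tested. Without either unselected library 0 pairs were enriched, and without the selected library of replicate 1 or of replicate 2 there were 349 and 373, with 199 and 231 lower, so the count moves strongly with single libraries. Library totals in place of TMM gave 123 (14 of them among the 15) and 470 lower, and replicate as a block gave 22, including all 15.

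The peptides named AN and BN held the highest partners of P1 and P2 outside the 4 peptides in AnBnNPA, on either axis. In AnBnNPA BN4 with P1 went from 2413 to 41614 reads (log2 ratio 4.03) and P1 with BN4 from 2235 to 10870 (2.20). AN4 with P2 went from 4186 to 47049 reads (3.41), and P2 with AN4 from 1135 to 53730 (5.49), slightly above the designed P2 with P1 at 5.40. As row protein AN4 was itself high with many partners, with a median of -0.59 against -3.64 for the median row protein. The crossed combinations were lower: P1 with AN4 was at -0.30, AN4 with P1 at -1.72, P2 with BN4 at -3.93 and BN4 with P2 at -0.28. P1 thus went with BN4 and P2 with AN4 in both orders.

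In the Coiled pool 3 of these 4 orders were high again. BN4 with P1 went from 2438 and 2926 reads to 33095 and 34069 (4.21 and 3.24) and rose by 6.03 ± 0.62 (adjusted p = 0.0456). AN4 with P2 went from 5878 and 4713 to 44573 and 50039 (3.37 and 3.11) and rose by 5.59 ± 0.45 (adjusted p = 0.0339). P2 with AN4 was at 5.35 and 4.04, 7.28 ± 0.83 in the fit, and just missed the threshold (adjusted p = 0.0520). P1 with BN4 was lower, at 0.09 and 0.13 (2.47 ± 0.83, adjusted p = 0.223), though above P1 with AN4 and P2 with BN4 in both replicates. The crossed pairs lay below the 3 highest of these: P1 with AN4 at -3.11 and -2.69, P2 with BN4 at -3.30 and -2.70, AN4 with P1 at -1.56 and -0.86, and BN4 with P2 at 0.02 and -1.55. In replicate 1 BN4 with P2 was close to P1 with BN4. The shorter names of the set, AN3, AN35, BN3 and BN35, had mean ratios between -3.91 and 0.14 with P1 or P2 in either order.

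N1 and N2 also met these peptides. AN4 with N2 went from 2076 and 1874 reads to 10817 and 14088 in the Coiled pool (2.83 and 2.61; 5.05 ± 0.71 in the fit) and from 17614 to 175416 in AnBnNPA (3.24), while N2 with AN4 was at -2.88 and -2.83, and at -4.02. BN4 with N1 was at 1.48 and 1.82 in the Coiled pool and 2.61 in AnBnNPA. None of these 3 orders passed the test. With N2 as column in AnBnNPA, P11 (3.72) and N6 (3.44) lay above AN4.

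P2 had 1 further enriched partner as row protein, mALb8x12j_rprtc_B, at 4.17 and 4.44 (6.66 ± 0.50, adjusted p = 0.0339), a chain of an mALb8 form that ranked between AN4 and P1 in the row. Next came mALb8x2_rprtc_B at 2.33 and 2.52 (4.78 ± 0.88, adjusted p = 0.119). As column protein mALb8x12j_rprtc_B had the highest median over partners of the Coiled pool, at -0.29 and -0.62, and of the mALbR pool, at -0.70. The pair with P2 was at -0.84 and 0.67 in the other order. P1 as row had no such partner: its next were BW8_B (mean 1.43, with -1.14 in replicate 2), BW5_2Hx12j_B (1.05 and 0.64) and BW5_A (-1.195 and 2.27), and the first and last of these rest on 1 replicate. P1 therefore had P2 as first of 131 row partners with a gap of 2.85, whereas in the P2 row P1 ranked 3 of 125, behind AN4 and that chain. As column, P1 had P8 next after BN4 and P2 (0.26 and 2.38), and P2 had mALb8x12_fdrtc_B next after P1 and AN4 (3.23 and 2.08; 5.20 ± 0.81, adjusted p = 0.0967).

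N2 as row protein had higher ratios with several mALb8 B chains than with its own partner in the Coiled pool. N2 with mALb8_cutT1_B went from 838 and 553 reads to 32193 and 44998 (5.71 and 6.04), and the swapped order from 288 and 212 to 10500 and 13389 (5.63 and 5.67). In the fit these rose by 8.23 ± 0.52 (adjusted p = 0.0339) and 8.01 ± 0.81 (adjusted p = 0.0438). N2 as row also rose with mALb8x1_fdrtc_B (7.69 ± 0.54), mALb8x1_rprtc_B (7.57 ± 0.44), mALb8x2_fdrtc_B (7.04 ± 0.69), mALb8_B (6.93 ± 0.66) and BW8_B (6.95 ± 0.71), with adjusted p from 0.0339 to 0.0441. N1 ranked 10 of 128 in this row. With N2 as column N1 ranked 2 of 122, at a mean ratio of 5.15, behind only mALb8_cutT1_B at 5.65. As column N2 also had mALb8x12j_fdrtc_B (3.70 and 4.49; 6.51 ± 0.80, adjusted p = 0.0580) and IL8_2H_B (3.66 and 3.97; 6.17 ± 0.76, adjusted p = 0.0572), which missed the threshold.

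For N2 the value went with the chain of the mALb8 forms. Over these forms, a list made after values were seen, N2 as row had a median of 4.61 with 10 measured B chains. Of these B chains 9 were above 0 in both replicates, against 6.08% of all measured pairs. With 11 A chains its median was -2.16, and none of them were above 0. As column N2 had medians of 2.35 with 11 B chains and -2.75 with 11 A chains. The other peptides also had higher medians with B than with A chains. As rows P1 had -0.96 with B and -2.18 with A chains, and P2 had -0.83 and -2.47. N1 had 3.22 (over 9) and 1.82, and as columns B was likewise above A for all 3. Some B chains were high over all partners. As row mALb8x12_fdrtc_B had the next highest median after N1 (0.68 and 0.41), and as column mALb8x12j_rprtc_B had the highest (-0.29 and -0.62). Whether B lay above A over all proteins was not tested. Some pairs were high in 1 order: N2 with mALb8x1_rprtc_B was at 5.18 and 5.24 and the swapped order at -1.15 and -0.07, and N2 with BW8_B was at 4.54 and 4.65 and the swapped order at -1.29 and -2.14.

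**Figure D4:**
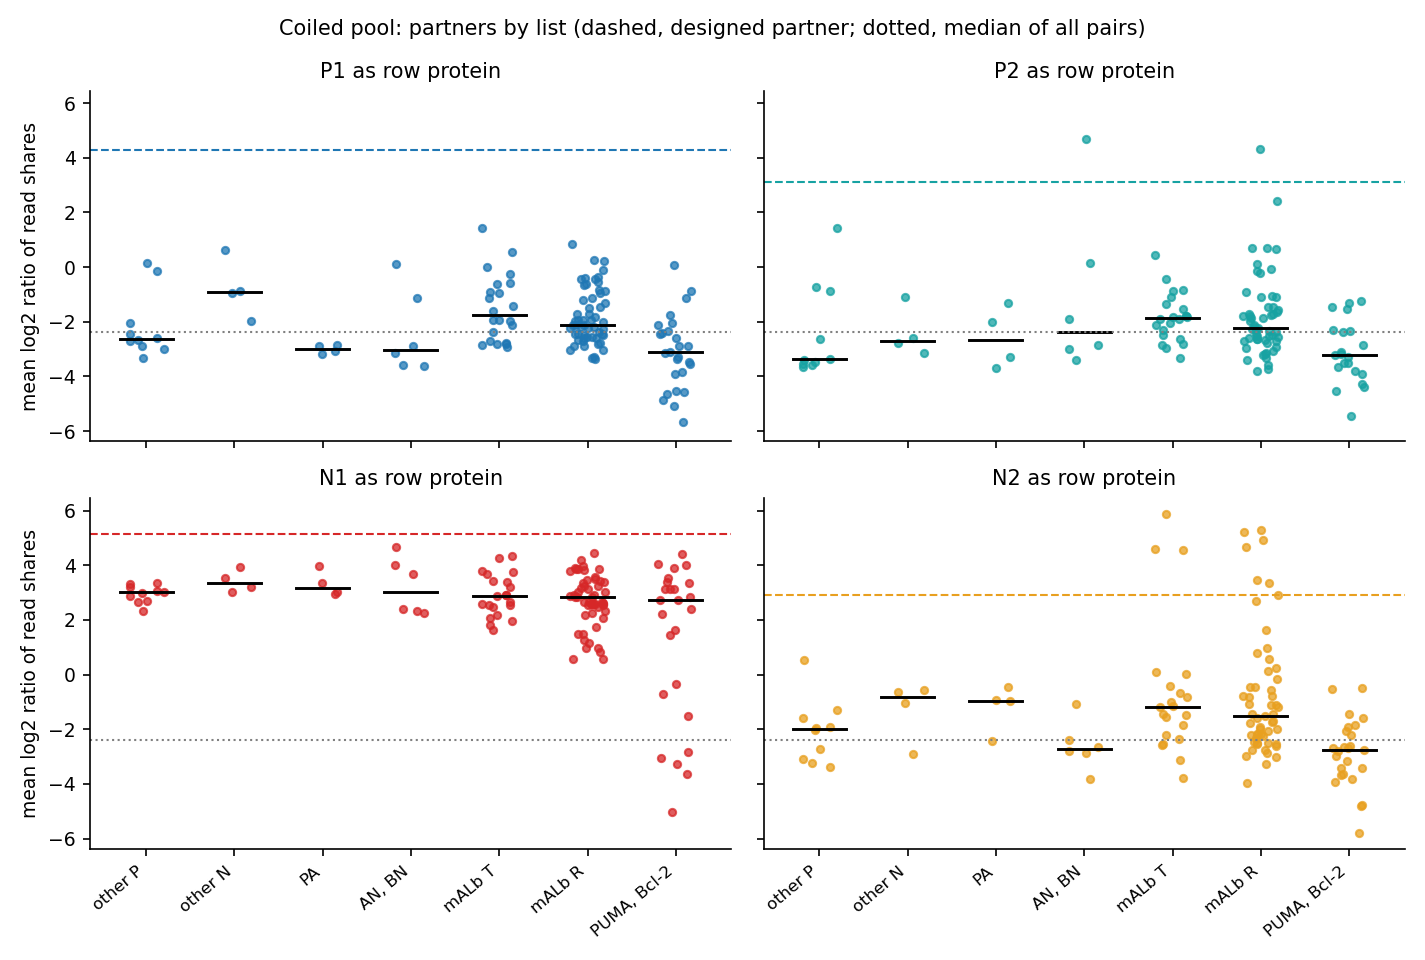
Mean log2 ratio of read shares over both Coiled replicates (vertical axis) for each measured partner of P1, P2, N1 and N2 as row protein, grouped by list of partners; black bars are medians of lists, dashed lines the designed partner and dotted lines the median of all pairs. Nearly all N1 points lie above 0, and N2 has a group of mALb points above its designed partner at 2.90.

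Likeness of profiles was taken over shared Coiled partners, where P1 as column was most like AN4 (Pearson r = 0.546 over 120 partners) and AN35 (0.522), and P2 as row most like BN35 (0.524 over 124) and BN4 (0.489). The median over all proteins was 0.266 for P1 as column. On their other sides P1 as row was most like BW5_2Hx12j_B (0.403) and AN35 (0.385), and P2 as column was most like BW3_2H_B (0.5485), PUMA_M144A_I137A (0.536) and PUMA_M144A_W133F (0.504), with no AN or BN peptide among its 3 most alike. N2 as row was most like mALb8_A (0.663 over 117), BN4 (0.660) and mALb8x1_rprtc_A (0.624), with a median of 0.235. N1 as row was most like mALb8x12j_fdrtc_B (0.346 over 122), with a median of 0.115. These correlations run over partners that share libraries and depth, and describe the profiles without a test.

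Self pairs were scarce before selection. In NCIP P1 with itself had 12 and 5 reads and P2 with itself 30 and 23, against medians of 2902.5 and 2432.5 over pairs of different peptides. Self pairs of all 12 peptides were scarce, with medians of 21.0 and 14.5 reads, and P2 lay above these medians. The same held in the Coiled pool, where self pairs had medians of 105 and 24.0 reads and other pairs 1063 and 705.5. After selection P1 with itself had 9 and 11 reads at 2 mM and 36 and 26 at 10 mM, and P2 with itself 10 and 15, then 46 and 20. In the fit P1 with itself was at 5.48 ± 1.74 at 2 mM (adjusted p = 0.157) and 6.36 ± 1.58 at 10 mM (adjusted p = 0.0764), and P2 with itself at 4.38 ± 1.496 (adjusted p = 0.188) and 4.75 ± 1.35 (adjusted p = 0.1235). None of these passed, and the values depended on the scale and on single libraries. On library totals P1 with itself was at 0.26 at 2 mM and 1.69 at 10 mM (adjusted p = 0.0440), and P2 with itself at -1.04 and 0.15. Without the 2 mM library of replicate 1 P1 with itself passed at 2 mM (7.06, adjusted p = 0.00204), and without that of replicate 2 as well (3.36, adjusted p = 0.0132), while P2 with itself passed without the former (5.87, adjusted p = 0.0017) and was at 1.87 without the latter. At 10 mM both self pairs passed without either 2 mM library. At these counts a change was not resolved.

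P1 with itself went from 243 and 47 reads to 32 and 38 in the Coiled pool (-2.44 and -0.60), and P2 with itself from 400 and 97 to 49 and 62 (-2.55 and -0.94). N1 with itself went from 101 and 62 reads to 160 and 1203 (1.11 and 3.95), and N2 with itself held 911 and 217 after selection (3.03 and 0.58). Both N self pairs were above 0 in both replicates, with replicates far apart. The N1 self pair belongs to the N1 row, whose medians over partners were 2.95 and 2.81, so it lay below its row in replicate 1 and above it in replicate 2. No test between the series was run. Their fitted changes were 5.37 ± 1.00 (adjusted p = 0.125) and 4.64 ± 0.99 (adjusted p = 0.141), and those of the P self pairs 0.55 ± 0.81 and 0.41 ± 0.64, and none passed. With replicate as a block N1 with itself passed (4.89, adjusted p = 0.0296). In AnBnNPA N1 with itself went from 21 to 187 reads (3.02) and N2 with itself from 694 to 1978 (1.43, 1.31 to 1.56).

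Without selection the designed P pair held smaller shares at later times. In NCIP replicate 1 P1 with P2 had 1866, 1356 and 1237 reads at 24, 44 and 60 h of outgrowth with histidine, a log2 ratio to 24 h of -0.40 (interval -0.50 to -0.30) at 44 h and -0.66 (-0.77 to -0.56) at 60 h. P2 with P1 had 796, 571 and 523 reads (-0.42 and -0.67). The 40 pairs of P1 or P2 with other peptides had medians of 0.00 and -0.04 at these times, ranging from -0.51 to 0.61 at 60 h, so both designed orders lay below these 40. Over all 144 pairs of the pool the range was wider, from -1.16 to 1.93 at 60 h, and other pairs had lower values. The self pair of P2 went the other way, with 30, 48 and 75 reads (1.23 at 60 h, interval 0.62 to 1.92), below the highest pair of the pool. There was 1 library per time and no replicate check.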

How the data were processed

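The authors deposited 1 square table of read counts of ordered protein pairs per library, used here as given. The submitters' processing notes name DESeq2, with no role or version. Barcode matching is not given in the sources used here. Blank cells were taken as 0. In the Coiled pool 1 partner was missing from 1 technical run of each selected replicate.

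Libraries were grouped by title and description. 4 libraries of other proteins, whose titles and descriptions give opposite selection states, were not used. In R 4.3.3, edgeR 4.0.16 (robust glmQLFit, glmQLFTest, TMM) was run on every pair whose summed reads reached 10 times the number of libraries, and Benjamini-Hochberg adjusted p-values under 0.05 were called. SE is the change divided by the square root of F. Ratios used Python 3.11.15 with pandas 2.3.3 and scipy 1.17.1. The fits were tested on simulated data.

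Candidates for naming were all pairs among the peptides and pairs past the test. Added per peptide and side were up to 3 partners (2 in NCIP and AnBnNPA) of highest mean ratio. These had to lie above the pool's median in each replicate. The 3 most alike profiles by Pearson's r were also candidates. Not all candidates are printed, and some other pairs are given beside them. Designs with a leading 4-digit number in their name were taken as mALb R. The peptides and lists were chosen with earlier results of these data known.

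Replicate numbers pair libraries, because each number marks 1 library set in the descriptions. Deviations of same-numbered libraries correlated at 0.162, 0.143 and 0.791 in NCIP (2 mM, 10 mM, 10 against 2 mM) and 0.260 in Coiled.

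Tried besides were DESeq2 1.42.0, scaling to library totals, filters at 0 and 50 reads, a replicate block, omission of single libraries, use of 1 technical run, pooled outgrowth libraries, pseudocounts of 0.5 and 10, and subtraction of the pool's median. Subtraction of a protein's own median over partners was chosen after seeing the data.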

Additional observations from a re-analysis of the deposited data

Results flagged for a closer look

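P1 with itself had log2 ratios of opposite sign in 2 pools with replicates: 1.41 and 1.90 in NCIP at 10 mM 3-AT, where both replicates were above 0, and -2.44 and -0.60 in the Coiled pool at 1 mM, where both were below 0. The NCIP values rest on 12 and 5 reads before selection. The difference was not tested.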

How the results depend on the processing

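With 2 libraries per group, counts of pairs called moved with single libraries. Against 2 enriched pairs in NCIP at 2 mM, DESeq2 gave 5, and omission of single libraries gave 0 (without either unselected library) to 4 (without the 2 mM library of replicate 1). At 10 mM such omissions gave 0 (again without either unselected library) to 4 (without either 2 mM library), and DESeq2 left 29 of 44 pairs with no adjusted p. Against 15 in the Coiled pool, DESeq2 gave 236, library totals 123, and omissions 0 (without either unselected library) to 373 (without the selected library of replicate 2; 349 without that of replicate 1), with 231 and 199 lower. With a replicate block the counts were 2, 2 and 0 in NCIP and 22 in Coiled, where all 15 remained and N1 with N2 and N1 with itself newly passed; it changed no other call of a pair among the peptides. The lone library left by an omission is assumed to vary like the others. Library totals moved the median of all pairs from -0.21 to -4.50 at 2 mM, from -0.14 to -4.81 at 10 mM and from 0.05 to -2.29 in Coiled. On that scale these log2 changes of pairs that had not passed the test turned: P2 with itself at 2 mM (-1.04), P1 with P2 at 10 against 2 mM (0.40), and in Coiled P1 with itself (-1.78), P2 with itself (-1.92), P1 with N1 (-1.98), P1 with N2 (-1.72), P2 with N2 (-1.19) and N2 with P2 (-1.18). DESeq2 turned P2 with P1 (-0.077) and P2 with itself (-0.14) at 10 against 2 mM, and P2 with N1 in Coiled (0.019). The first technical run alone turned P2 with itself (-0.65). Omissions of single libraries also turned uncalled pairs. At 10 against 2 mM they ranged from -0.63 to 3.00 for P1 with itself, -1.45 to 1.58 for P1 with P2, -0.85 to 2.96 for P2 with P1 and -1.04 to 2.89 for P2 with itself. In Coiled they ranged from -0.066 to 1.69 for P1 with itself, -0.13 to 1.30 for P2 with itself, -0.52 to 1.01 for P1 with N1, -0.31 to 1.29 for P1 with N2, -0.14 to 0.14 for P2 with N1, -0.81 to 2.08 for P2 with N2 and -1.30 to 1.90 for N2 with P2. Of all log2 changes of pairs among the peptides under alternatives, 208 kept direction and side of the threshold, 48 newly passed it, 10 no longer passed and 26 turned. The designed P orders at 2 and at 10 mM in NCIP kept their direction in all 12 alternatives and passed in 10. Of 10 alternatives in Coiled P1 with P2 passed in 8, P2 with P1 in 6, N1 with N2 in 5 and N2 with N1 in 4. The cause of these shifts was not tested. At the stricter minimum of 50 reads the mALbR pair was not measured. Self pairs with few reads limit what could be resolved.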
